A study of Mus musculus with 35 samples.

Results

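The gene-model block at the start of mouse chromosome 14 holds 3735 of the 59485 peaks (6.28%) called for tagged NELFA in mouse embryonic stem cells. Its members were chosen by position and by the peak call itself: every peak of the deposited list whose summit, the point of highest signal, lies on chromosome 14 from 3 Mb up to but not including 8 Mb (build mm10). The call therefore selected the members on the same signal that gives their fold enrichment, and their numbers and folds are given as descriptions with no test. The list comes from chromatin immunoprecipitation sequencing (ChIP-seq) of E14 embryonic stem cells with an inducible, Strep-HA-tagged NELFA transgene. All the cells behind it were cultured in 2i medium and received doxycycline at 0.4 µg/ml for 16 h. From 3 replicates there were 3 libraries pulled down with a first HA antibody, 1 with a second HA antibody and 3 input libraries, in which chromatin was sequenced without pull-down. The HA antibodies see the tagged transgene product and not the cell's own NELFA, and no library of uninduced cells was analysed here. E14 cells come from another mouse strain than the reference assembly. The list gives 1 value per peak with no value per library, so no replicate error can be given, the read depth is unknown, and the 95% intervals below cover counting error only.

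NELFA is a subunit of the negative elongation factor, a complex that holds RNA polymerase II paused shortly after it has started transcription. The start of the assembled mouse chromosome 14 is built of repeated copies of a few gene models, most of them known only by number. Among them is takusan, a duplicated gene family of rodents described in work on synapses.

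The RefSeq tables (GRCm38.p6, the assembly of mm10) placed 168 gene models in the block, and 105 of them had 156 start sites with promoter sequence. To show how alike the copies are, the 250 bases before the annotated start are printed 5′ to 3′ for members of the 3 largest families, with capitals where a copy differs from the first line of its set. Families were joined by promoters with at least 60% identity over at least 210 of 300 bases, and the examples were chosen after their values were seen. In the first family, Gm8246 (chr14:5477831-5478080, minus strand) and Gm3685 (chr14:7044908-7045157, minus strand) have a summit in the printed stretch, whereas Gm3182 (chr14:4481558-4481807, plus strand) and Gm8279 (chr14:5131332-5131581, plus strand) have none within 1 kb of their start. Gm3424 has the same 250 bases as Gm8246, at chr14:5830323-5830572 on the minus strand.
Gm8246: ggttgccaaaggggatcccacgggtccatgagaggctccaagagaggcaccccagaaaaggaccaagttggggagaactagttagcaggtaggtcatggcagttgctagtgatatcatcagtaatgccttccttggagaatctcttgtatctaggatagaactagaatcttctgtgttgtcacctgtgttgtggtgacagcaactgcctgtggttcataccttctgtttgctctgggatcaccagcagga
Gm3685: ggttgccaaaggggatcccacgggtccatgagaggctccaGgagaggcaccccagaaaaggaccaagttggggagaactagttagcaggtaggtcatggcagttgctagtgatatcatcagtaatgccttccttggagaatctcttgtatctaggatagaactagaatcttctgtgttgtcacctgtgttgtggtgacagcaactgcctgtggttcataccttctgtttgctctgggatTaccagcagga
Gm3182: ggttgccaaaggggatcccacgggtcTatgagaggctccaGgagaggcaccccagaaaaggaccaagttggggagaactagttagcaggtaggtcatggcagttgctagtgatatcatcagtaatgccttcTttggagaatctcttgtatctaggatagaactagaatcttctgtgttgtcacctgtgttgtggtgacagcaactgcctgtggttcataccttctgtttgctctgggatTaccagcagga
Gm8279: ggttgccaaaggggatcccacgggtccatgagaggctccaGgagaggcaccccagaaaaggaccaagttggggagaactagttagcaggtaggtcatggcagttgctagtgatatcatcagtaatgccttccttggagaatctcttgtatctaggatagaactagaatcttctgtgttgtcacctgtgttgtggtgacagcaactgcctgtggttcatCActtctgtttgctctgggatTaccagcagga
The second family holds 2610042L04Rik, for which RefSeq lists takusan as a synonym (chr14:4334513-4334762, plus strand), and Gm3411 (chr14:6287251-6287500, minus strand). They show starts of the same family with and without a peak of high fold nearby.
2610042L04Rik: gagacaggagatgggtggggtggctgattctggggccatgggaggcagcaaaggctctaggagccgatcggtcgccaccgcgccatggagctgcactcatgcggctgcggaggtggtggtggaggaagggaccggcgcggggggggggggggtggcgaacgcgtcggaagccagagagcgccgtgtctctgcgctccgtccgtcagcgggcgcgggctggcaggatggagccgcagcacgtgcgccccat
Gm3411: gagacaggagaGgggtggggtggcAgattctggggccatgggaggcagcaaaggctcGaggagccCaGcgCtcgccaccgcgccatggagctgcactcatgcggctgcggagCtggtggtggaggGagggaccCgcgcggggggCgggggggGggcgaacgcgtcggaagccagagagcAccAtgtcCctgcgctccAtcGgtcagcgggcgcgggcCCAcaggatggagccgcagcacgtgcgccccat
The third family consists of long non-coding RNA (lncRNA) models. Gm41088 (chr14:5233423-5233672, minus strand) has the same letters as Gm41086 (chr14:5586052-5586301, minus strand).
Gm41088: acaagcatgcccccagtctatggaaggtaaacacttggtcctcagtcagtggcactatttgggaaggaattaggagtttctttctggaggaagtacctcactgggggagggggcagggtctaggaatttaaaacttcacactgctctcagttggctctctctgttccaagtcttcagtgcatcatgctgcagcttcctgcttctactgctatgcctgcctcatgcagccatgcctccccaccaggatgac
An inner start of Gm8108, the gene with the highest peak of the block (chr14:4111764-4112013, plus strand), has the same letters as the outer start of Lamtor3-ps (chr14:6425623-6425872, minus strand).
Gm8108: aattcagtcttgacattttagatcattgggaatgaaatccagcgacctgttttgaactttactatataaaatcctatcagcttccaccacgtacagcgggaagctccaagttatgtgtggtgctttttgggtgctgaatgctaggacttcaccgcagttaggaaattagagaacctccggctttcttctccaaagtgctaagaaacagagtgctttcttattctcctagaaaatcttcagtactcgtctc
The first family differs by 2 substitutions between Gm8246 and Gm3685 and by 4 between Gm8246 and either Gm3182 or Gm8279. Between 2610042L04Rik and Gm3411 there are 19 substitutions. The peak names carry replicate digits and a tag for mapping quality (MAPQ), whose meaning is not given in the sources used here. How reads that align to several copies were treated is not given there either. Binding at 1 copy and reads shared among copies therefore cannot be told apart anywhere in the block.

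Peaks were closely spaced through nearly all of the block. The first peak (chr14:3000085-3000233, fold 2.22) lies at the start of the assembled sequence, and peaks then followed at a median spacing of 873 bp between summits. In the rest of chromosome 14 the median spacing was 1915 bp among 1903 peaks. Of the 3734 neighbouring summits, 97.7% were under 5 kb apart, against 59.6% in the rest of chromosome 14 and 59.0% in the whole list. Peak intervals covered 30.7% of the 5 Mb, against 0.475% of the rest of the chromosome. Over the 4.70 Mb from the first to the last peak there were 794 peaks per Mb, against 16.3 per Mb beyond the block.

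Peaks filled the block from its start to near its end, at varying density. In 19 of the 20 windows of 250 kb there were 149 to 241 peaks, with a median of 197, and the last window held none. The median fold per window stayed between 2.27 and 2.86. The share of each of the 19 windows covered by peaks ranged from 18.5 to 46.9%. Beyond the block, the median was 10.5 peaks per Mb among the megabases with any peak, and the fullest, starting at 43 Mb, held 280. Among 543 windows of 5 Mb across the chromosomes, the block ranked 1 by number of peaks, and the median window held 60. The next was the window from 143 to 148 Mb of chromosome 4 with 1494 peaks. The same 3 to 8 Mb stretch of the other 18 autosomes held 60 to 355 peaks each, with a median of 117.

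**Figure D1:**
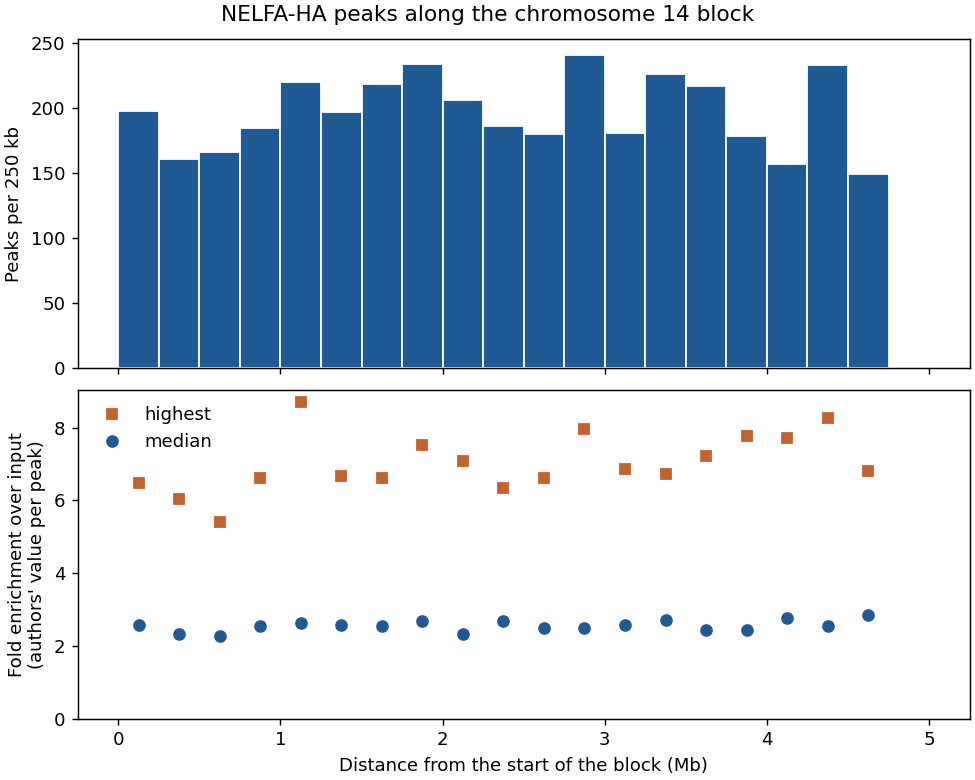
Peaks per 250 kb (top) and the highest and median fold enrichment per window (bottom) against distance from the start of the block in Mb. The 19 filled windows hold 149 to 241 peaks with medians of 2.27 to 2.86, and the last window is empty.

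The peaks stopped short of the rule's upper limit. The last peak inside it (chr14:7700658-7701317) had a fold of 3.00, and the one before it (chr14:7667886-7668081) a fold of 2.45. Between them lay the largest gap between block peaks, 32576 bp. After the last peak the final 299 kb up to the limit held none. The first peak outside the limit (chr14:8006142-8006198) had a fold of 2.36. The next gaps in size were 27811 bp (chr14:7214275-7242085), 18488 bp (chr14:7153013-7171500) and 17949 bp (chr14:5291305-5309253).

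The folds of block peaks were mostly moderate, with a median above that of the list. Fold enrichment is the ratio of pull-down to background at the summit, as the peak caller gave it. Its median was 2.54 in the block (order-statistic interval 2.50 to 2.59), 2.13 in the rest of chromosome 14 and 2.09 in the whole list. A fold of 3 or more was reached by 1234 block peaks (33.0%), against 14.2% of the whole list. A fold of 5 or more was reached by 208 (5.57%), against 3% of the list. The highest block fold was 8.71, whereas the list reached 27.3 and had 139 peaks of fold 10 or more, 0 of them in the block. The chromosome 4 window named above was higher, with a median of 2.68 and 9.37% of its peaks at 5 or more. The block held many peaks in the upper middle of the range and none at its top.

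Block peaks were also wide. Their median width was 275 bp (263 to 284), against 181 bp in the rest of chromosome 14 and 170 bp in the list, and 263 of them (7.04%) spanned 1 kb or more, against 4.33% of the list. The median −log10 q was 7.01 in the block and 3.31 in the list. Width and fold went together across the 3735 peaks (Spearman's rho 0.87), as they did across the whole list (0.84). These peaks share libraries and depth, and rho is a description of the list. Block peaks of 1 kb or more had a median fold of 4.67, and narrower ones 2.45.

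**Figure D2:**
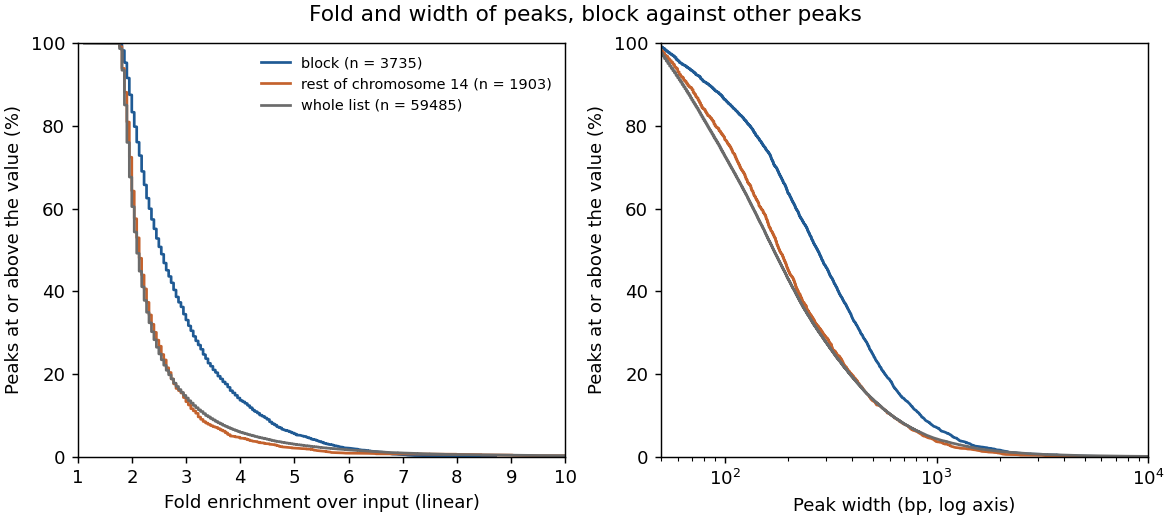
Share of peaks at or above a given fold enrichment (left, linear axis) and a given width in bp (right, log axis) for the block, the rest of chromosome 14 and the whole list. At a fold of 5 the block curve stands at 5.57% and that of the whole list at 3%, and the block ends at 8.71.

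The folds fall on a grid, which limits how finely peaks can be ranked. In the block 95.9% of folds were whole multiples of 0.0454 within a tolerance of 0.001, against 98.1% in the list. Repeated values were therefore common: 24.3% of block peaks shared both width and fold with another block peak, and 30.5% of peaks in the rest of chromosome 14 did so among themselves.

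The 10 highest peaks lay at or inside gene models: 3 within 1 kb of a gene boundary, meaning an annotated start or end, and 7 deeper inside a gene. Of the 10, 6 lay more than 3.5 Mb from the start of the block. The highest (chr14:4110549-4111801, fold 8.71, 1253 bp wide) had its summit 689 bp inside Gm8108, a coding model of unassigned function that itself lies within the larger coding model Gm32966. The second (chr14:4148889-4154398, fold 8.30) lay within Gm32966, 9972 bp from its nearest boundary. The third (chr14:7289691-7292276, fold 8.26) had its summit 908 bp outside Gm3739. Next came peaks of fold 7.95 inside the lncRNA model Gm51421 (chr14:5972617-5973923) and of fold 7.76 inside Gm32041 (chr14:6986489-6987543). Further peaks inside genes had folds of 7.65 in Gm31035 and Gm3696 (chr14:7081165-7082074) and 7.52 in Gm10410 (chr14:4936081-4937533). The other 3 had folds of 7.22 to 7.72, at Gm3715, in Gm32041, and in Gm26680 and Gm3636. Overlapping models share a peak, so the 10 peaks are not 10 separate genes.

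The widest peak (chr14:6050738-6057773) spanned 7036 bp with a fold of 6.87 over Gm51421 and Gm6337. The next in width were a peak of 5918 bp and fold 7.03 outside genes, 1929 bp from Gm10406 (chr14:6998784-7004701), the peak of 5510 bp in Gm32966 named above, and another of 5205 bp and fold 7.11 in Gm32966 (chr14:4077370-4082574). The fifth spanned 5095 bp in Gm3248 with a fold of 6.75 (chr14:5903136-5908230). Gm32966 held the highest peak, shared with Gm8108, and the second highest. It also held 2 of the 5 widest, and the second highest is 1 of these.

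Peaks outside genes and over 1 kb from a boundary reached similar folds. The 5 highest of these had folds of 6.69 to 7.12, nearest to Gm3739 (7.12 at chr14:7288906-7289263), Gm3526 (7.08 at chr14:5249456-5250076), Gm10406 (7.03), Gm3558 (6.81 at chr14:7541798-7543246) and Gm18575 (6.69 at chr14:7430677-7431870). The median fold was 2.59 for boundary peaks, 2.54 for peaks deeper in genes and 2.50 for those outside genes. The medians of the 3 classes differed by less than their spread among peaks.

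The split of summits by gene position was close to that of the bases in the block. Summits within 1 kb of a gene boundary made up 12.9% of the block peaks (482; Wilson interval 11.9 to 14.02%), and 12.8% of the bases between the first and last peak lie in such windows. Summits deeper inside a gene made up 57.2% (2136; 55.6 to 58.8%), against 54.1% of the bases. Those outside made up 29.9% (1117; 28.5 to 31.4%), against 33.1% of the bases. In the whole list the shares were 13.5% at boundaries, 37.6% deeper inside and 48.9% outside. With windows of 2 kb the boundary share turned from below the list's to above it, at 24.1% against 19.8%.

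Nearly every gene model in the block had a peak at a boundary. Of the 168 models, 154 (91.7%, 86.5 to 94.97%) had a summit within 1 kb of a start or end, against 12.8% of all 49943 annotated genes. This count has to be read beside the density of peaks: 80.6% of all bases between the first and last peak lie within 1 kb of a summit. A model is counted by its start or its end, so the matching share per model is higher than that per base. Of the 80 protein-coding models 73 had a boundary peak, against 18.8% of all coding genes. Of the 35 lncRNA models 35 had one, against 7.85% of all lncRNA genes. Of the 51 pseudogenes 44 had one, against 7.16% of all pseudogenes. The highest boundary fold reached 5 in 23 of the 168 models, against 0.709% of all genes.

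The median of the highest boundary fold was 3.63 over the coding models with such a peak, 3.40 over the lncRNA models and 2.93 over the pseudogenes. Their ranges overlapped widely, from 2.00 to 8.71, from 2.13 to 6.72 and from 1.86 to 7.72. The peak of highest fold lay on the gene's side of the boundary in 77 of the 154 models and beyond it in the other 77. Inside the 123 models of at least 5 kb that begin before the last peak, summits numbered 8.70 per 10 kb in the median (quartiles 6.79 and 10.2), and the number of summits rose with length (Spearman's rho 0.92 over 163 models, many of which overlap and share peaks).

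**Figure D3:**
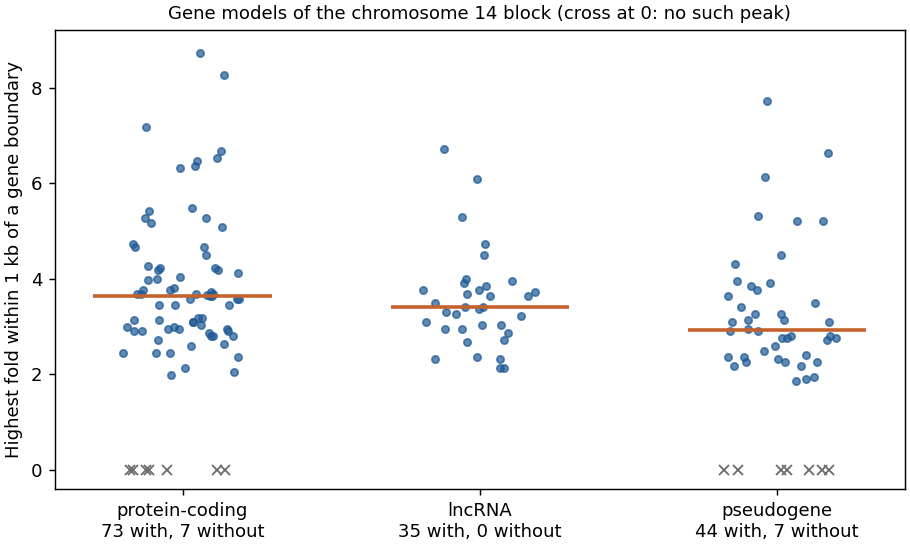
Highest fold enrichment within 1 kb of a boundary for each gene model of the block, by annotated class; orange bars are medians and crosses at 0 are models with no such peak. The classes overlap, with medians of 3.63, 3.40 and 2.93.

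Among the 10 models with the highest boundary fold, 7 are coding, 1 is an lncRNA and 2 are pseudogenes. After Gm8108 (8.71; chr14:4110352-4131721) and Gm3739 (8.26; chr14:7292808-7316401) came Gm3715, a transcribed pseudogene with 7.72 (chr14:7222557-7244812), and Gm10406 with 7.18 (chr14:7006115-7028582). The lncRNA model Gm51421 had 6.72 (chr14:5911093-6070460). The last 5 were LOC115488283 with 6.67, the pseudogene Gm3170 with 6.63, Gm38418 with 6.54, Gm3752 with 6.46 and Gm3558 with 6.35. The peak of Gm8108 rests on the width of the window: within 500 bp of its boundaries its highest fold was 2.36. That of Gm3739 was 5.90 within 500 bp.

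Models with ordinary gene names are few in the block. Lamtor3-ps, named after a subunit of the lysosomal Ragulator complex and listed as protein-coding despite its symbol, had 3 boundary peaks of up to 6.31 (chr14:6409557-6425622). Dnase1l3, which encodes a secreted DNase (chr14:7965187-7994760), had no peak at a boundary or inside. It lies beyond the last peak, as do Gm10044, Gm8396 and Gm45521, also without one. Of the 163 models that begin before the last peak, 154 had a boundary peak and 9 did not. Of these 9, the coding models 4930555G01Rik and Gm10408 had 1 and 3 summits deeper inside, with folds of up to 2.54 and 3.99, and Gm6676 had 1 of fold 1.86. The other 6 are the pseudogenes Esd-ps, Gm18569, Gm8323, Gm8324, Gm2877 and Gm3339, with none inside.

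Pseudogenes of matching length were set side by side. Over all 51 pseudogenes of the block 86.3% had a boundary peak, and 80.6% of bases between the first and last peak lie within 1 kb of a summit. All 9 of 1220 bp had a boundary peak, with folds of 2.36 to 5.22, and so did all 6 of 994 to 996 bp, with folds of 2.18 to 6.63. Of the 9 of 1135 to 1140 bp, 8 had one, with folds of 1.95 to 3.27. Of the 4 of 1286 to 1287 bp only Gm2871 had one, with a fold of 1.91. All 4 lie in the copies of the proximal duplication described below, and Gm8324 and Gm2877 are a matching pair of it. The 250 kb windows that hold them had the fewest covered bases of the filled windows, 49709 and 46237. Length and position cannot be told apart for these 4. In the same copies, the pseudogenes Gm18572, Gm18571 and Gm18567 of 1140 bp had boundary folds of 2.41, 1.95 and 2.27, and Gm18569 had no boundary peak. These classes were grouped after their values were seen.

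Most promoters of the block could be placed in families: 95 of the 105 models with promoter sequence fell into 16 families of at least 2 models. The 300-base promoter windows, from 250 bases before to 50 after the start, held a summit in 39 of 156 cases (25%), against 4.35% of all 32851 promoters. Of all 300-base windows between the first and last peak of the block, 23.5% held a summit, so the promoters stood close to the density of the block. The block's promoters had 2 CpG dinucleotides in the median against 7 over all promoters, and a median GC content of 49.3% against 52.7%. The set was mixed. Its upper GC quartile was 62%, against 61.7% over all promoters, and its highest CpG count was 33, against 67. Motifs were searched as letters on both strands. TATAAA was in 10.3% of the block's windows and 13.6% of all, CCAAT in 30.8% and 37.4%, GGGCGG in 19.2% and 35.7%, and CACGTG in 7.05% and 7.15%. CACGTG also appears near the end of the printed 2610042L04Rik sequence. Of the 39 windows with a summit, 1 held TATAAA, 12 CCAAT, 8 GGGCGG and 3 CACGTG.

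The first family has 34 coding models with a median promoter identity of 96.2%. A summit lay within 1 kb of the start in 25 of them (73.5%), against 80.6% of all bases of the stretch with peaks, and in the promoter window in 12. The highest fold within 1 kb ran from 2.04 to 5.26 with a median of 2.90, and only Gm3127 passed 5. The commonest place for a summit was 1750 to 2000 bp into the gene, filled in 15 of 34 models. The family's median was 7 models per bin of 250 bp, and 13 had a summit 1250 to 1500 bp before the start. Its models also turn direction along the block: the 18 from Gm2888 to Gm8271 all read on the plus strand, and 15 of the 16 from Gm8246 on read on the minus strand, with Gm3488 the exception.

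Near-identical promoters in this family had different surroundings. Gm8246 had 4 summits within 1 kb of its start, with folds of 2.45 at 528 bp and 2.04 at 190 bp into the gene, and of 2.95 at 246 bp and 2.50 at 902 bp before it. Gm3424, with the same letters, had 2.36 at 647 bp and 2.18 at 152 bp into the gene, and 3.04 at 217 bp and 2.04 at 813 bp before it. These 2 copies had the same number of summits on each side of the start. Gm3685, 2 substitutions away, had 2.77 at 155 bp into the gene, and 2.41 at 230 bp and 3.09 at 857 bp before it. Gm3182 and Gm8279, 4 substitutions away, had no summit in that 2 kb. Their nearest lay 1747 bp into Gm3182 (fold 2.04) and 1370 bp before Gm8279 (2.22). Gm8279 had a peak of fold 4.54 at 1846 bp into the gene, so peaks were missing at the start and not around it.

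The takusan-related family has 25 models with a median promoter identity of 89.2%, and 20 (80%) had a summit within 1 kb of the start, beside the same 80.6% of bases. Of those with one, the median of the highest fold was 3.61, and 7 models reached 5. These were Gm8108 (8.71), LOC115488283 (6.67), Gm38418 (6.54), Gm3752 (5.95), 2610042L04Rik (5.83), Gm3739 (5.54) and Gm10406 (5.45). Counting the start or the end of each model, 23 of all 168 models of the block (13.7%) reached 5. The commonest place was 500 to 750 bp into the gene, filled in 10 of 25 models, against a median of 5 per 250 bp bin. Gm8108 had its summit there at 689 bp, and 2610042L04Rik and Gm3752 both at 557 bp. Gm3411, whose start is printed beside that of 2610042L04Rik, had a single summit within 1 kb, at 150 bp into the gene with a fold of 3.00. The 10 models up to Gm3264 read on the plus strand and the 15 from Gm3500 on read on the minus strand.

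In the lncRNA family all 10 models had a summit within 1 kb of the start, beside the same 80.6% of bases, with highest folds of 1.86 (Gm41093) to 3.90 (Gm41088). A summit lay 500 to 750 bp into the gene in 6 of the 10, and 3 other bins of 250 bp were filled in 5. Among smaller families, 7 of 8, 6 of 6 and 4 of 5 models had one. Models of different families can share summits, as Gm46464 and Gm26552 do. Within 3 kb of its start Gm41088 had folds of 3.90, 2.81 and 4.31 at 578, 2342 and 2795 bp into the gene, and of 2.27, 4.54 and 3.81 at 368, 1525 and 2715 bp before it. Gm41086, with the same letters, had 3.04, 2.41 and 3.68 at 564, 2235 and 2796 bp into the gene, and 5.04 and 3.72 at 1503 and 2677 bp before it. The summits lay at nearly the same places apart from that of fold 2.27, and Gm41088 had the higher fold at each shared place but the one of fold 5.04 in Gm41086.

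**Figure D4:**
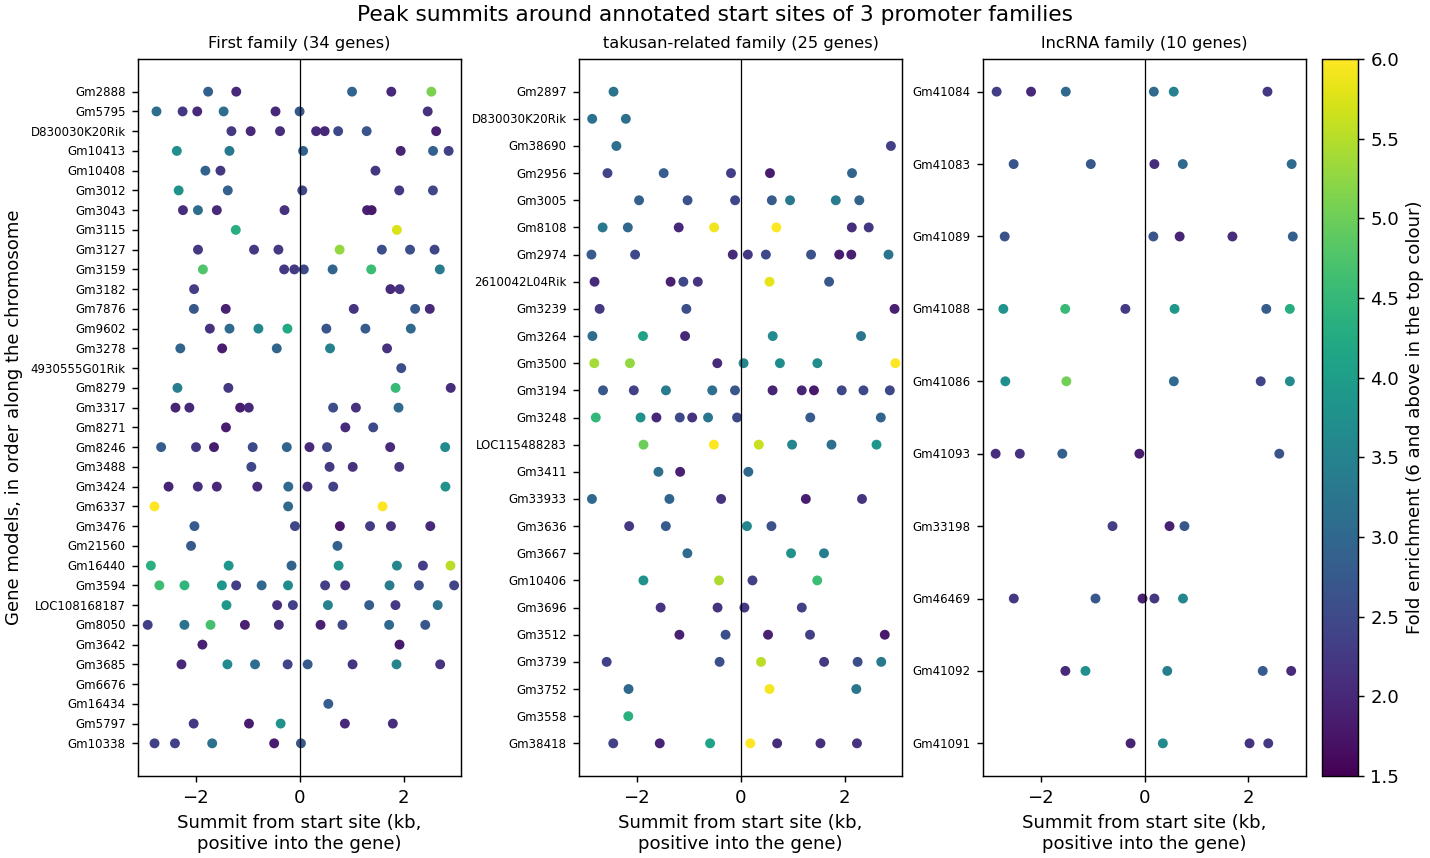
Summits within 3 kb of the annotated start site for each model of the 3 largest promoter families, in order along the chromosome; colour gives fold enrichment. Copies differ in which places are filled, and a summit of fold 5 or more lies within 1 kb of the start in 7 models of the takusan-related family, 1 of the first family and 0 of the lncRNA family.

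Across the 13 pairs of models with the same 300 promoter letters, 11 had a summit within 1 kb of both starts and 2 of only 1, counting 1 shared start per pair. This count stands beside the 80.6% of bases in the stretch with peaks that lie within 1 kb of a summit. Pairs of unlike starts were not compared, so neither the count nor the fold ratios below can be called a trait of identical promoters. The 2 were Gm6676, with none, against Gm16434 with 2.81, and Gm2977, with none, against Gm3050 with 2.31. The second rests on the start chosen: from another shared start of these models, at 3504104, Gm2977 had 1 summit of fold 2.27. In the 11 pairs the higher of the 2 highest folds was 1.28 times the lower in the median, from 1.03 to 2.21. The largest ratio was that of Gm8108 and Lamtor3-ps, whose shared sequence is printed above. Counted from that start, Gm8108 had 5.90 at 2170 bp and 8.71 at 973 bp before it, and 2.09 at 478 bp and 2.22 at 803 bp into the gene. Lamtor3-ps had 5.85 at 1475 bp before it and 3.95 at 540 bp into the gene. Both thus had a summit about 500 bp into the gene, of different fold, and their highest peaks before the start lay at different distances. Pairs that share a model or overlap (Gm46464 and Gm26552, for example) are not independent.

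Gene order showed 2 longer duplications, and peaks in them repeated as well. In the distal pair, chr14:5147818-5426858 recurs at chr14:5500978-5779383, at an offset of 352630 bp set by the starts of Gm46464 and Gm46465, with 8 matching gene pairs. In the proximal pair, chr14:3332010-3541060 recurs at chr14:3571683-3780453, at an offset of 239393 bp, with 6 pairs. These segments were found from gene starts and ends after the data were seen. The distal copies held 199 summits each, and the proximal ones 137 and 149.

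In each pair, summits of the copy nearer the start of the chromosome were matched to the other copy. Of the 199 distal ones, 116 (58.3%, 51.3 to 64.9%) had a partner within 100 bp of the matching place. That place was found with an offset read between the gene pairs, which ran from 352486 to 353160 bp along the distal and from 239393 to 239673 bp along the proximal segment. With the single offset of each segment, 53.3% of distal summits (106; 46.3 to 60.1%) and 60.6% of proximal ones (83; 52.2 to 68.4%) had a partner. At the single distal offset, 16.1% of the 3247 summits elsewhere in the block (14.9 to 17.4%) had a neighbour that close. With local offsets, 75 of the 137 proximal summits had a partner (54.7%, 46.4 to 62.8%), and at the single proximal offset 15.9% of 3413 summits elsewhere did (14.7 to 17.1%). Partners had like folds: 90 of the 116 distal pairs (77.6%) and 59 of the 75 proximal ones (78.7%) were within 1.2 times of each other. Among the 523 and 542 summits elsewhere with a neighbour at the same offset, 40.7% and 36.5% were. Spearman's rho of the 2 folds was 0.85 over the 116 distal pairs and 0.65 over the 75 proximal ones. Elsewhere it was 0.04 and -0.01 at the same offsets. These are descriptions of summits from the same libraries.

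High peaks were repeated in part. Of the 5 highest summits of the nearer distal copy, that of 7.08 at 5249663 met one of 4.58 at 5602352, and that of 6.15 at 5402228 met one of 4.99 at 5754764. Those of 6.35, 6.17 and 6.13 had no partner within 100 bp. That of 6.13 lay 310 bp inside Gm3348. The matching model Gm3170 had a peak of fold 6.63 with its summit 156 bp inside, so a high peak recurred there beyond the limit. Among partners within the limit, the pair with the highest lower fold joined 5.89 at 5407730 with 6.11 at 5760233. Of the 5 highest summits of the nearer proximal copy, those of 4.86, 4.39 and 4.36 met partners of 4.04, 4.58 and 3.63. Those of 4.81 and 4.47 had none. Among all pairs, the largest ratio within a pair was 2.05 in the distal and 1.78 in the proximal segments. Among all summits of the nearer copies, those without a partner had a lower median fold. It was 2.41 against 2.81 for those with one in the distal segment, and 2.22 against 2.50 in the proximal one. Whether the copies differ there, a weak peak was missed in 1 of them or a partner lay beyond the limit was not tested for each summit.

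**Figure D5:**
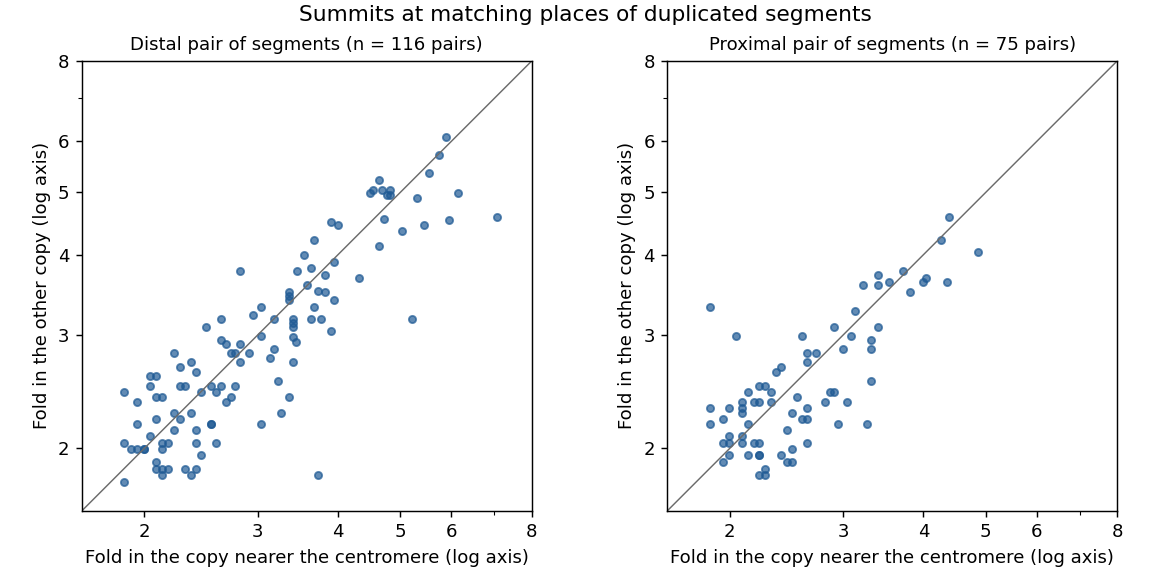
Fold enrichment of summits at matching places in the 2 copies of each duplicated segment (log axes; the grey line marks equal folds). Most points lie along the line, with 77.6% of distal and 78.7% of proximal pairs within 1.2 times.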

How the data were processed

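ChIP-seq peaks of induced, HA-tagged NELFA were read from 1 deposited list. Trim Galore 0.4.2, Bowtie2 2.2.9, SAMtools 1.4 and MACS2 are named in the submitters' processing notes, with no settings. Fold enrichment (a ratio) and −log10 p and q values per peak are the authors' own, with q under 0.05; how the libraries were combined is not given in the sources used here. RNA and accessibility libraries of the series were not used here.

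Summits were compared with RefSeq gene starts and ends (49943 genes, GRCm38.p6) in Python 3.11.15 with pandas 2.3.3. Promoters were compared with BLAST+ 2.17.0. Protein families were not built, since no protein table was used here. Counting steps were tested on simulated summits. Intervals are Wilson 95% intervals for shares and order-statistic intervals for medians. Depth is unknown.

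Named were the 10 models of highest boundary fold, coding models with ordinary names, up to 5 coding models without a boundary peak, Gm8108, the 10 highest and 5 widest peaks, and the 5 highest outside and deep inside genes. An item that the rule also names is not reported here. Other names were chosen after values were seen. The members and lists were chosen with earlier results of these data known. Alternatives covered the q and fold minimum, window, gene class, spacing and overlap.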

Additional observations from a re-analysis of the deposited data

How the results depend on the processing

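Of 32 alternative settings of the main values, 15 left the value within 1.5 times (counts) or within its interval (shares and medians), and 17 moved it. Keeping only peaks of −log10 q of at least 4 gave a median fold of 2.95, a median width of 392 bp and 94.4% of neighbouring summits under 5 kb apart. Without peaks of 1 kb or more the median fold was 2.45. The share of summits at boundaries was 7.01% with windows of 500 bp, 24.1% with 2 kb, 6.80% with coding genes only and 15.0% by overlap of the interval. The share deeper inside genes was 61.5%, 50.1% and 36.0% with 500 bp, 2 kb and coding genes only, against 40.4%, 33.9% and 29.4% in the whole list. Coding genes alone gave 73 models with a boundary peak, which counts fewer models. Neighbours were 86.5% within 2 kb and 99.9% within 20 kb. Joining intervals under 1 kb apart raised the covered share to 51.5%. Twins by fold and −log10 q were 95.8%. A partner limit of 50 bp, added after seeing the data, gave 77 distal summits with a partner, or 38.7%, against 7.98% of summits elsewhere. A limit of 200 bp, also added then, gave 144, or 72.4%, against 31.7% elsewhere. Causes were not tested. No paired analysis was possible because the result comes from no test, and no replicate could be left out because the list has no column per library. With no depth and no replicate value, the counts per copy cannot be given a sampling error.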
